A study of Homo sapiens with 30 samples.

Results

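The genes described here encode the proteasome, its activators and its assembly factors, measured by RNA sequencing in SUM190 cells, an established line of inflammatory breast cancer. They are the rows of the deposited table whose symbol starts with PSM, a letter from A to G and a digit, and that reached 1 CPM (reads as a share of the library, scaled between libraries) in at least 2 libraries. PSMB8, PSMB9, PSMB10, PSME1, PSME2 and PSMD3 were left out by name. Of 20114 gene symbols, 49 matched the pattern, 6 were left out by name, and PSMA8 stayed below the minimum with at most 0.236 CPM (6 reads). The remaining 42 genes are the members. Of these, 41 encode proteasome subunits, activators, an inhibitor or assembly factors. PSMC3IP matches by its symbol only, since its protein is a cofactor of meiotic recombination that was named for binding a proteasome ATPase.

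The 30 libraries form 15 groups of 2. Doxorubicin-resistant SUM190 cells (SUM190 DR) were grown in DMSO, the vehicle, or in 350 nM or 1 µM doxorubicin. The 5 groups of paclitaxel-resistant cells (SUM190 PR) were DMSO, 6.5 nM paclitaxel, 10 nM paclitaxel, 15 µM ruxolitinib, and ruxolitinib combined with 6.5 nM paclitaxel. The 7 groups of parental cells were DMSO, 2.5 nM and 10 nM paclitaxel, 65 nM and 1 µM doxorubicin, 15 µM ruxolitinib, and ruxolitinib combined with 2.5 nM paclitaxel. Drugs were added 24 h after seeding and stayed on for 72 h. Doxorubicin is an anthracycline that poisons topoisomerase II, paclitaxel stabilises microtubules, and ruxolitinib inhibits the kinases JAK1 and JAK2. The labels give ruxolitinib as 15 µM alone but as 15 nM in both combinations, and the doses are printed as labelled. How the resistant lines were made, and whether each is a single clone, is not stated in the labels. Nor do they say if the replicates of a group came from separate cultures, and each p-value reflects the spread of these libraries alone, possibly a technical one.

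Libraries held 18443749 to 32669995 reads in genes. The limit that a gene without reads still allows, 3 reads, was 0.0947 to 0.163 CPM. Epithelial markers (EPCAM, KRT8, KRT18, CDH1 and ERBB2) summed to 3267 to 6510 CPM per library. The summed markers of other cell types were low, at 7.30 to 38.9 CPM for 5 immune genes, 4.94 to 12.4 CPM for 4 fibroblast genes and 1.96 to 7.92 CPM for VWF and CDH5 of endothelium. CD3E, COL1A2, PDGFRB and DCN stayed below 1 CPM in every library. CPM is a share of each library, so less RNA of a gene in every cell and fewer cells that express it cannot be told apart.

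The proteasome degrades proteins tagged with ubiquitin. Its core particle is a barrel of stacked rings, with outer rings of alpha subunits (PSMA genes) that gate the channel and inner rings of beta subunits (PSMB genes), of which PSMB5, PSMB6 and PSMB7 carry the chymotrypsin-like, caspase-like and trypsin-like sites. The regulatory particle on its ends unfolds substrates with a ring of ATPases (PSMC genes), while PSMD genes encode its scaffolds, its ubiquitin receptors and the deubiquitinase PSMD14. PSMG1 to PSMG4 are chaperones of the core particle, and PSMD5, PSMD9 and PSMD10 are chaperones of the ATPase ring. PSME3 and PSME4 encode alternative activators and PSMF1 a regulator first described as an inhibitor. When proteolysis is blocked, the transcription factor NFE2L1 escapes degradation and raises proteasome genes together, binding antioxidant response elements as a dimer with a small MAF protein.

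The 40 subunits and factors other than the thymic PSMB11 were expressed in every library. Per kilobase of the longest coding transcript, the 7 alpha subunits had a median level of 124 CPM per kb (range 36.5 to 272), and the 7 beta subunits of the constitutive core a median of 101 CPM per kb. The 6 ATPases had a median of 68.1 CPM per kb and the 10 other subunits of the regulatory particle one of 70.0 CPM per kb. The assembly chaperones were lower, with a median of 35.7 CPM per kb, and PSMG4 was the lowest of them at 1.85 CPM per kb.

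PSMD11, a scaffold subunit of the lid of the regulatory particle, stood far above its partners. Its median over the 30 libraries was 2105 CPM, or 514 CPM per kb, which was 8.87 times the median of the 39 other subunits and factors (57.9 CPM per kb). The next member, PSMA6, had 272 CPM per kb. PSMD11 ranked 80 of 12662 tested genes with a known length, and PSMA6 ranked 164. In the gene order of assembly GRCh38.p14, PSMD11 on chromosome 17 has ZNF207 (805 CPM) among the 5 tested genes on one side and MYO1D (1192 CPM) among the 5 on the other. The other 8 of these 10 neighbours had medians of 3.65 to 116 CPM. PSMD3, left out by the rule, is also on chromosome 17 and had 1015 CPM per kb, rank 21. Of the 7 members on chromosome 17, the next after PSMD11 was PSMC5 at 98.2 CPM per kb.

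Over the 15 groups, the 30 subunits of the core and regulatory particles moved in a narrow range. The median distance between a subunit's highest and lowest group mean was 0.60 on the log2(CPM + 1) scale, against 1.04 for all 12743 tested genes and 0.92 for the 6185 genes averaging at least 30 CPM. Without parental cells in 1 µM doxorubicin these medians were 0.40, 0.76 and 0.67. PSMD1 had the widest range of the 30, at 1.05, and the narrowest was 0.30. Among the activators and chaperones, PSME4 spanned 1.38 and PSMG1 spanned 1.07.

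**Figure D1:**
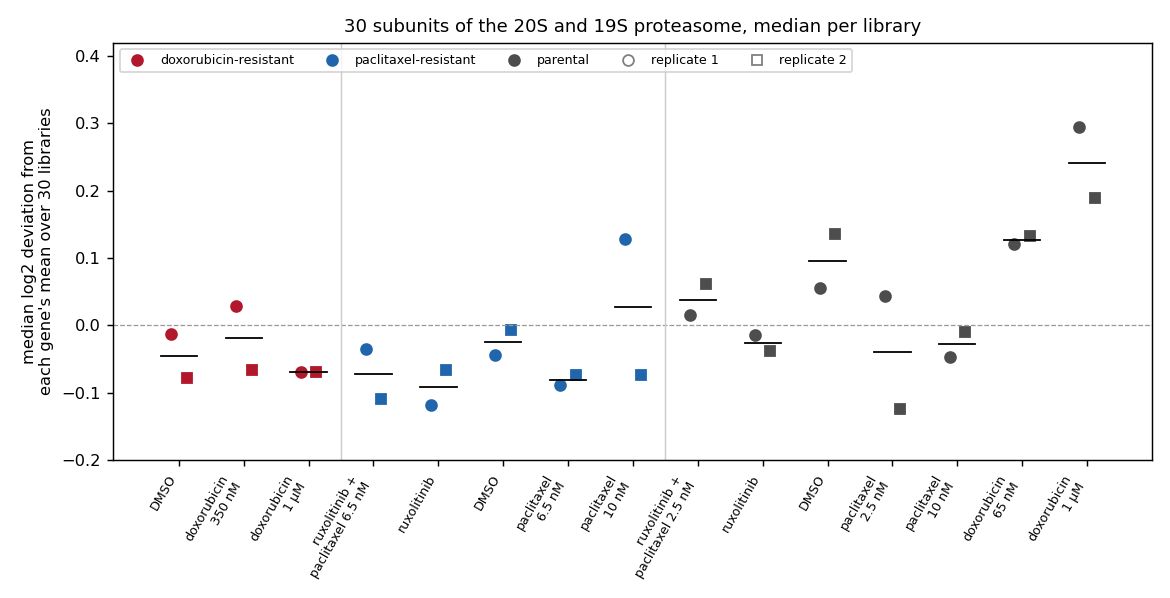
Median log2(CPM + 1) deviation of the 30 core and regulatory subunits from each gene's mean over the 30 libraries (y axis), by group (x axis). Points are libraries (circle replicate 1, square replicate 2) and lines are group means. Parental cells in 1 µM doxorubicin are the highest, at 0.29 and 0.19, and the replicates of paclitaxel-resistant cells in 10 nM paclitaxel lie apart at 0.13 and -0.07.

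The replicate spread is part of that picture. In paclitaxel-resistant cells at 10 nM paclitaxel, all 30 subunits were lower in replicate 2 than in replicate 1, by a median of 0.20 (log2), while 52.1% of all tested genes were lower there. In parental cells at 2.5 nM paclitaxel, 29 of 30 were lower in replicate 2, by a median of 0.15, against 57.5% of all genes. The plot of deviations by library shows both gaps.

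The first question is how the resistant lines differ at baseline. In DMSO, doxorubicin-resistant cells had 1 member higher and 6 lower than parental cells (limma, adjusted p under 0.05, used for every call below), where 27.5% of all 12743 tested genes were called, 12.3% higher and 15.2% lower. The GC and length correction gave 1 higher and 13 lower, and it called 5651 of all tested genes. The higher one was PSME4, the nuclear activator PA200. The lower ones were the catalytic subunit PSMB5, the alpha subunit PSMA3, the ATPases PSMC1 and PSMC6, and the chaperones PSMD9 and PSMG1. The median log2 fold change of the members was -0.10, against -0.01 for all tested genes. Each fold change below is a difference between group means on the log2(CPM + 1) scale, which understates the change of low genes, and stands with its standard error.

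PSMB5, the target of the proteasome inhibitor bortezomib, had 105 and 100.2 CPM in doxorubicin-resistant cells, against 136 and 165 CPM in parental cells. Both libraries of the resistant line were below both parental ones, and the log2 fold change was -0.54 ± 0.11 (adjusted p = 0.000893). The other catalytic subunits were not called. PSMB6 had 46.1 and 44.2 CPM against 48.6 and 57.3 CPM in parental cells (log2 fold change -0.22 ± 0.12), and PSMB7 had 127 and 115 CPM against 123 and 135 CPM (-0.09 ± 0.08), with groups that overlap.

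PSMD9 had 24.8 and 27.4 CPM in doxorubicin-resistant cells, against 34.7 and 41.6 CPM in parental cells (log2 fold change -0.53 ± 0.11, adjusted p = 0.000925). PSMC1 had 166 and 159 CPM in the resistant line and 214 and 236 CPM in the parental line (-0.47 ± 0.08, adjusted p = 7.81e-05). PSMA3 had 173 and 170.3 CPM in the resistant line and 249 and 215 CPM in the parental line (-0.43 ± 0.10, adjusted p = 0.00225). In each of these 3 genes the lines did not overlap. Here and elsewhere such separation describes 2 libraries a side, and its share over all tested genes is not given. PSME4 had 335 and 371 CPM in doxorubicin-resistant cells, against 263 and 228 CPM in parental cells (0.52 ± 0.10, adjusted p = 0.000443). The calls of PSMC6 (-0.34 ± 0.11) and PSMG1 (-0.31 ± 0.10) were weaker. Both were lost without parental DMSO replicate 1, where PSMC6 stood at -0.18 (adjusted p = 0.28), and without either resistant replicate.

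Position on the chromosome goes with these baseline differences. PSMB5, PSMC1, PSMA3 and PSMC6 all lie on chromosome 14, where 53.4% of 431 tested genes were lower in doxorubicin-resistant cells and the median log2 fold change was -0.31, against 15.2% lower over the whole genome. Of the 6 members on chromosome 14, 4 were lower, and of the 36 on other chromosomes 1 was higher and 2 lower. The other pair on chromosome 14 was PSMA6, with 265 and 259 CPM in the resistant line against 307 and 283 CPM in the parental line (-0.17 ± 0.09, not called), and PSMB11, with no reads in either line. PSME1 and PSME2, which are no members, lie there too and were lower by a log2 fold change of -0.47 and -0.48. With PSMB8, PSMB9 and PSMB10 they form a list of 5 genes, of which 4 were lower. The lowest value of the list, -0.54, belonged to neither PSME1 nor PSME2.

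Around PSMD9 on chromosome 12, 16 of the 20 nearest tested genes were lower in doxorubicin-resistant cells, with a median of -0.56. Around PSMA3 and around PSMC6, 16 of 20 were lower, with medians of -0.47 and -0.48. The neighbours of PSMB5 had 10 lower and those of PSMC1 had 11, with medians of -0.31 and -0.29. PSME4 on chromosome 2 had neighbours with a median of 0.08, of which 3 were higher and 3 lower. PSMG1 on chromosome 21 had neighbours with a median of -0.12, of which 3 of 20 were lower. Over the 41 members other than PSMB11, the log2 fold change and the neighbours' median had a Pearson r of 0.72, a description over genes that share the same 4 libraries and in part the same neighbours. DNA copy number was not measured, so its part in these differences was not tested.

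**Figure D2:**
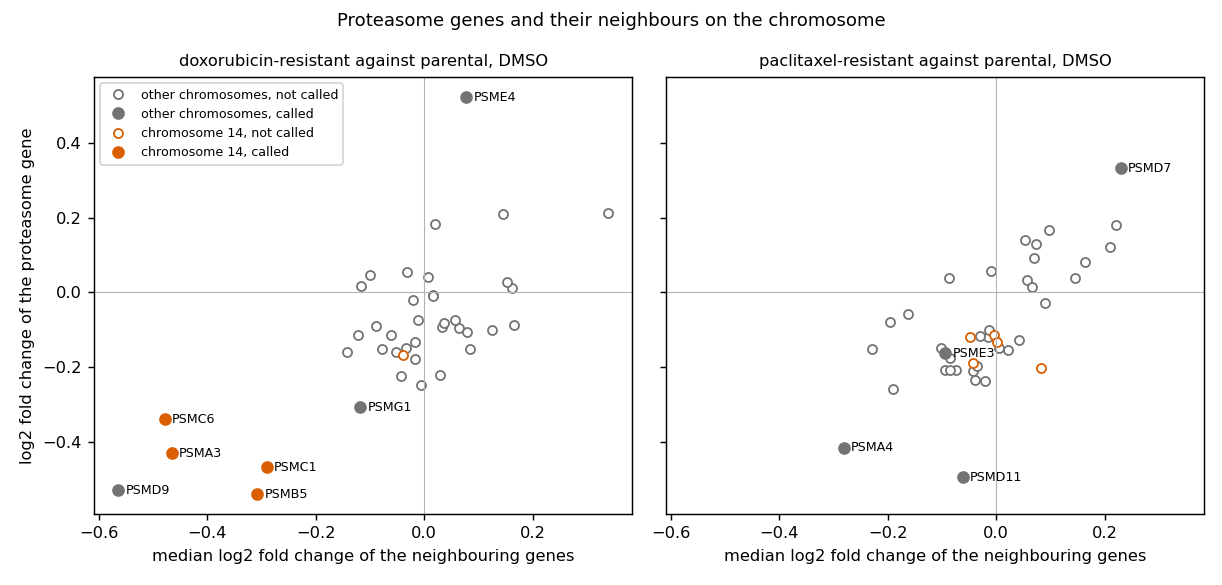
Log2 fold change of 41 proteasome genes (y axis) against the median log2 fold change of the 10 tested genes on each side (x axis), for doxorubicin-resistant (left) and paclitaxel-resistant (right) against parental cells in DMSO. Filled points were called, and orange points are on chromosome 14. On the left, PSMD9 and 4 genes of chromosome 14 lie low with their neighbours, while PSME4 is at 0.52 with neighbours at 0.08.

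Paclitaxel-resistant cells in DMSO had 1 member higher and 3 lower than parental cells, where 32.6% of all tested genes were called, 16.3% in each direction. The GC and length correction gave 6 higher and 13 lower, and it called 6108 of all tested genes. PSMD11 had 1735 and 1747 CPM in paclitaxel-resistant cells, against 2422 and 2480.0 CPM in parental cells (log2 fold change -0.49 ± 0.06, adjusted p = 2.21e-07). The alpha subunit PSMA4 had 241 and 244 CPM in the resistant line, against 344 and 305 CPM in the parental line (-0.41 ± 0.09, adjusted p = 0.00101). PSMD7, the inactive partner of the deubiquitinase PSMD14, had 191 and 180.1 CPM in the resistant line, against 154 and 141 CPM in the parental line (0.33 ± 0.08, adjusted p = 0.00184). The lines did not overlap in any of these. PSME3 was lower by a small amount (-0.16 ± 0.06, adjusted p = 0.0479), a call lost with any of the 4 libraries left out. PSMB5 had 129 and 133 CPM in paclitaxel-resistant cells, against 136 and 165 CPM in parental cells, and was not called (-0.19 ± 0.11), nor were PSMB6 (-0.21 ± 0.12) and PSMB7 (-0.20 ± 0.08).

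Members and neighbours moved together here as well, with a Pearson r of 0.71 over 41 genes. Around PSMD7 on chromosome 16, 9 of 20 neighbours were higher, and around PSMA4 on chromosome 15, 8 of 20 were lower. PSMD11 was the exception in size, at -0.49 with a median of -0.06 among its neighbours, of which 7 were lower and 3 higher. Both lines were compared with the same parental libraries, so their values are not independent of each other. Without parental DMSO replicate 1 the number of members called was 11.

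Set directly against paclitaxel-resistant cells, doxorubicin-resistant cells had 2 members higher and 6 lower, where 34.0% of all tested genes were called, 15.6% higher and 18.4% lower. PSMD11 (0.41 ± 0.06) and PSME4 (0.36 ± 0.10) were higher, and PSMD7 (-0.49 ± 0.08), PSMD9 (-0.38 ± 0.11), PSMB5 (-0.35 ± 0.11), PSMC1 (-0.34 ± 0.08), PSMA3 (-0.32 ± 0.10) and PSMD2 (-0.25 ± 0.07) were lower. PSMD2, a scaffold that binds ubiquitin receptors, had 466 and 455 CPM in doxorubicin-resistant cells and 543 and 556 CPM in paclitaxel-resistant cells. The GC and length correction gave 8 higher and 11 lower, and it called 6367 of all tested genes. Of the 8 members called without it, 7 shared the sign of their neighbours' median, the exception being PSME4. The calls fell to 4 or 5 when any 1 of the 4 libraries was left out: PSMA3 and PSMB5 were lost under each, PSMD9 was lost without doxorubicin-resistant replicate 1 or either paclitaxel-resistant replicate, PSME4 without doxorubicin-resistant replicate 2 or paclitaxel-resistant replicate 1, and PSMD2 without replicate 2 of either line.

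The second question is how each line responds to its drug. At 1 µM doxorubicin, parental cells had 15 members higher and 9 lower than in DMSO. In the same comparison 75.8% of all tested genes were called, 34.3% higher and 41.5% lower, so the share of members called (24 of 42) was not above the background. The split depends on the scaling: median-of-ratios scaling gave 25 higher and 8 lower, with the median of all genes at 0.02 in place of -0.07, and the GC and length correction 25 higher and 10 lower, with that median at 0.12 and the median of the members at 0.17 in place of 0.13. PSMB11 passed the minimum only in the treated libraries and so had to be higher, and without it 14 members were higher. Of the 6 ATPases, 4 were higher and none lower, with a median log2 fold change of 0.48. The 7 beta subunits had 1 higher and 1 lower, the 7 alpha subunits 2 and 2, and the 10 other regulatory subunits 4 higher and 3 lower. The median over the 30 subunits was 0.18, against -0.07 over all tested genes.

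PSMD8, a lid subunit, had 159 and 122 CPM in 1 µM doxorubicin, against 76.0 and 93.4 CPM in DMSO (log2 fold change 0.72 ± 0.11, adjusted p = 3.45e-06). The ATPase PSMC4 had 142 and 106 CPM in 1 µM doxorubicin, against 69.3 and 81.2 CPM in DMSO (0.70 ± 0.11, adjusted p = 3.64e-06). Both treated libraries were above both DMSO ones in these genes, although the treated replicates differed by more than the DMSO replicates. The ATPases PSMC6 (0.60 ± 0.11), PSMC2 (0.48 ± 0.08) and PSMC5 (0.47 ± 0.09) were also higher. PSMC2 had 488 CPM in both treated libraries, against 362 and 336 CPM in DMSO. The chaperone PSMG4 had 12 and 14 CPM in doxorubicin and 6.88 and 8.38 CPM in DMSO (0.70 ± 0.12).

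Of the catalytic subunits, PSMB6 was called higher (0.31 ± 0.12, adjusted p = 0.0216), but the groups overlap, with 75.2 and 57.2 CPM in 1 µM doxorubicin and 48.6 and 57.3 CPM in DMSO. That call was lost without doxorubicin replicate 1 (0.11) or DMSO replicate 1 (0.19). PSMB5 had 202 and 152 CPM in doxorubicin and 136 and 165 CPM in DMSO, and PSMB7 had 155 and 136 CPM and 123 and 135 CPM. Neither was called, at 0.23 ± 0.11 for PSMB5 and 0.18 ± 0.08 for PSMB7.

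The largest falls were in an assembly chaperone, a scaffold and an activator. PSMG1, which with PSMG2 starts the assembly of the alpha ring, had 39.4 and 51.0 CPM in 1 µM doxorubicin, against 100.5 and 89.9 CPM in DMSO (log2 fold change -1.07 ± 0.10, adjusted p = 2.59e-09). PSMD1, the largest scaffold of the regulatory particle, had 145 and 163 CPM in doxorubicin, against 323 and 291 CPM in DMSO (-0.99 ± 0.08, adjusted p = 5.2e-11). PSME4 had 132 and 175 CPM in doxorubicin, against 263 and 228 CPM in DMSO (-0.69 ± 0.10, adjusted p = 2.44e-06). The groups did not overlap in any of them.

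Further falls were in PSMD11 (1549 and 1631 CPM in doxorubicin, 2422 and 2480.0 CPM in DMSO, -0.62 ± 0.06) and in the beta subunit PSMB1 (-0.56 ± 0.08). The alpha subunits PSMA7 (-0.47 ± 0.08) and PSMA1 (-0.44 ± 0.10), the chaperone PSMG2 (-0.45 ± 0.10) and PSMD14 (-0.29 ± 0.10) fell too. The call of PSMD14 was lost with median-of-ratios scaling and without replicate 1 of either group. Subunits that occur in equal numbers in the finished complex had opposite signs at this dose, such as PSMC4 at 0.70 and PSMD1 at -0.99.

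**Figure D3:**
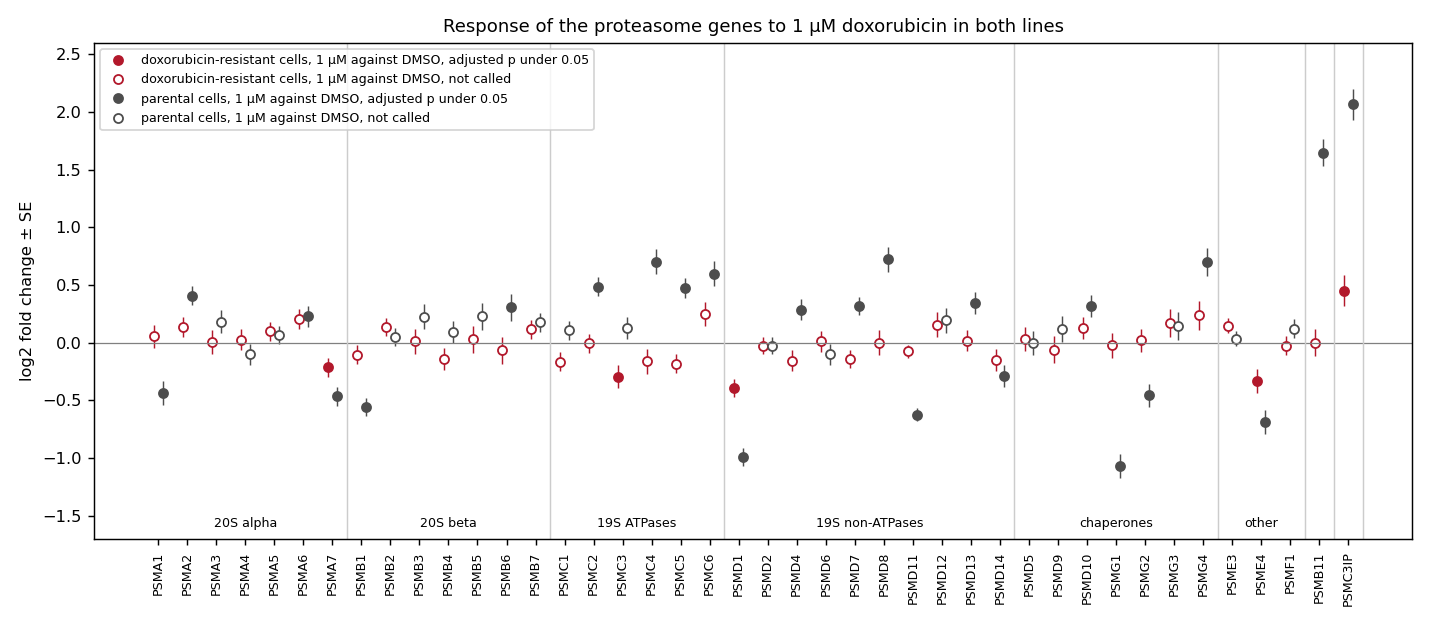
Log2 fold change with its standard error (y axis) for each of the 42 members, grouped by role (x axis), in 1 µM doxorubicin against DMSO. Red is the doxorubicin-resistant line and grey the parental line, and filled points were called. In parental cells 4 of 6 ATPases are higher, and PSMG1, PSMD1 and PSME4 are the lowest, while 5 members are called in the resistant line.

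The members with the largest fold changes are no standard subunits. PSMC3IP had 40.0 and 30.3 CPM in 1 µM doxorubicin, against 6.52 and 8.77 CPM in DMSO (log2 fold change 2.07 ± 0.13, adjusted p = 1.42e-12). PSMB11 encodes the beta subunit of the thymoproteasome, which is normally made in cortical thymic epithelium. It had 56 and 42 reads (2.70 and 1.65 CPM) in parental cells in 1 µM doxorubicin and no reads in DMSO. Against a floor of 3 reads per library this is at least 19.9-fold higher. No library of another group had more than 3 reads of PSMB11, so it is a member through these libraries alone. The level stayed far below that of its constitutive counterpart PSMB5 (202 and 152 CPM in the same libraries).

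Gene span went with the direction of the parental response. Taking the median span of each gene's coding transcripts, 16 members were under 10 kb, and of these 8 were higher and 2 lower in 1 µM doxorubicin, or 7 higher and 2 lower of 15 without PSMB11. Of 19 members from 10 to 30 kb, 7 were higher and 3 lower. Of 7 members of at least 30 kb, none was higher and 4 were lower, namely PSMD1, PSME4, PSMD11 and PSMD14. All tested genes shifted the same way, with 44.3% higher and 30.7% lower under 10 kb and 25.2% higher and 51.9% lower from 30 kb. The Spearman rho between span and log2 fold change was -0.38 over the 42 members, -0.33 over the 41 without PSMB11 and -0.25 over 12593 genes, as a description over genes of the same 4 libraries. PSMG1, with the deepest fall, was an exception with a span under 10 kb.

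**Figure D4:**
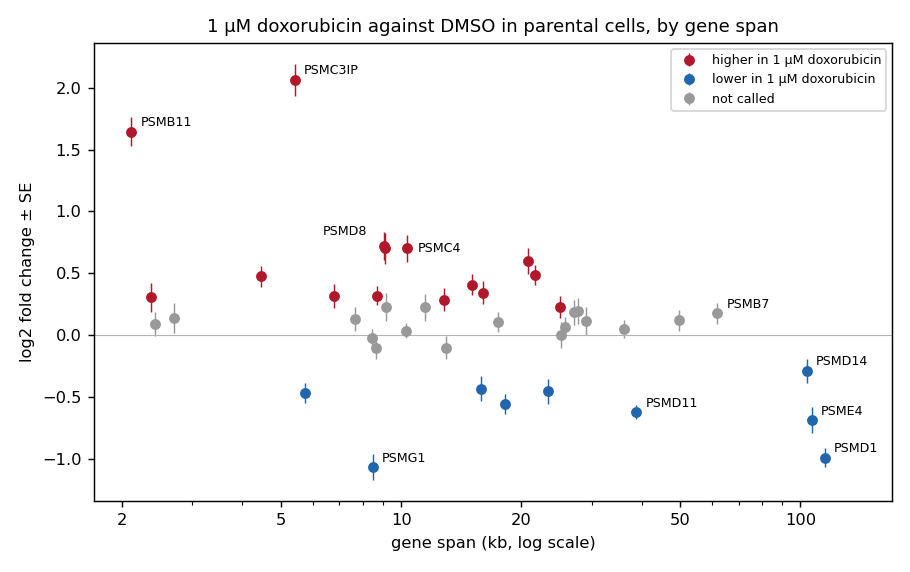
Log2 fold change with its standard error in parental cells, 1 µM doxorubicin against DMSO (y axis), against gene span in kb on a log scale (x axis), for the 42 members. Red points were higher, blue points lower and grey points not called. All called members with a span of at least 30 kb are lower, and PSMG1 at -1.07 is the lowest point among the short genes.

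Genes that work with the proteasome were called at 1 µM doxorubicin in parental cells about as often as all tested genes, of which 75.8% were called. Among 12 known regulators of proteasome genes, 5 were higher and 3 lower (66.7% called), and 76.5% of 17 partners and 76.9% of 13 ubiquitin and p97 genes were called. NFE2L1 had 629 and 475 CPM in doxorubicin, against 176 and 216 CPM in DMSO (1.48 ± 0.11). The small MAF partners MAFF (3.49 ± 0.14), MAFG (2.18 ± 0.11) and MAFK (0.60 ± 0.13) and the repressor BACH1 (1.19 ± 0.11) were higher, and NFE2L3 (-1.64 ± 0.12), KEAP1 (-0.34 ± 0.09) and NGLY1 (-0.29 ± 0.09) were lower. Of 17 partners of the proteasome, 5 were higher and 8 lower. The maturation factor POMP had 148 and 159 CPM in doxorubicin against 97.3 and 89.7 CPM in DMSO (0.71 ± 0.11), and AKIRIN2, which carries proteasomes into the nucleus, rose by 0.88 ± 0.08. The deubiquitinase USP14 (-0.88 ± 0.11) and the shuttle factor RAD23B (-0.79 ± 0.07) fell. Among 13 genes of ubiquitin and the segregase p97, 5 were higher and 5 lower. UBB rose the most of the 13, and SQSTM1 rose by 1.27 ± 0.10. The cofactor FAF1 fell the most, and VCP, which encodes p97, fell by 0.59 ± 0.08.

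Since NFE2L1 and the small MAF genes were higher, the promoters of the members were searched for the antioxidant response element that these factors bind. RefSeq promoter sequences (GRCh38.p14, 250 bases before to 50 after the start) were found for 36 of the 42 members. The core TGANNNNGC, on either strand, was in 20 of the 36 (55.6%) and in 42.1% of 27305 promoters of all genes, or 43.0% of the 10355 of tested genes. It was in 5 of 13 promoters of members that were higher in 1 µM doxorubicin (4 of 12 without PSMB11), in 5 of 7 of those lower, and in 10 of 16 of those not called. The longer form TGANTCAGC, which contains the core, was in the promoter of PSMD9 alone (2.78% of 36, against 1.35% of all promoters). CCAAT, searched separately on either strand, was in 18 of 36 (50%) against 35.7% of all promoters. In PSMA5 a CCAAT match lies within a match of the core. These matches are descriptions of the windows and not of binding. Stretches of 60 bases around a match follow for 5 members with large fold changes at this dose whose promoter held a match, and for PSMD9, 5′ to 3′ on the strand of the gene, with the match in capitals.
PSMD8 (higher; chr19:38374492-38374551, + strand): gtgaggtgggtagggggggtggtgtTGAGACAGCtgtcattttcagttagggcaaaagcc
PSMC4 (higher; chr19:39971094-39971153, + strand): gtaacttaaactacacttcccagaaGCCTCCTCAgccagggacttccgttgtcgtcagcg
PSMB11 (higher; chr14:23042021-23042080, + strand): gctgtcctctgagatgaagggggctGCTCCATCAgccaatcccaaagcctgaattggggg
PSMG1 (lower; chr21:39183452-39183511, - strand): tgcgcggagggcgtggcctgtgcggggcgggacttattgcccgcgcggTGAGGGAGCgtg
PSME4 (lower; chr2:53970994-53971053, - strand): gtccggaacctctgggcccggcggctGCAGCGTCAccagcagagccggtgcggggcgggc
PSMD9 (not called, longer form; chr12:121888540-121888599, + strand): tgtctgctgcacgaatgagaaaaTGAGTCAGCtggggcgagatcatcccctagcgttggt
The core occurs in promoters of members that rose and of members that fell, such as PSMD8 and PSMG1, and in 43.0% of promoters of tested genes. Whether NFE2L1 or the small MAF proteins act on the members was not tested.

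Doxorubicin-resistant cells at the same 1 µM dose had 1 member higher and 4 lower than in DMSO, where 39.1% of all tested genes were called, 19.1% higher and 19.9% lower. The split was 2 higher and 3 lower with median-of-ratios scaling, and 7 higher and 12 lower with the GC and length correction. That correction called 6957 of all tested genes. PSMD1 had 235 and 237 CPM in doxorubicin, against 307 and 314 CPM in DMSO (log2 fold change -0.40 ± 0.08, adjusted p = 0.000299). PSME4 had 275 and 283 CPM in doxorubicin and 335 and 371 CPM in DMSO (-0.34 ± 0.10, adjusted p = 0.0129). The ATPase PSMC3 (-0.30 ± 0.10) and PSMA7 (-0.21 ± 0.08) were lower, and PSMC3IP was higher with 11.9 and 12.7 CPM against 8.49 and 8.96 CPM (0.45 ± 0.13). Leaving out any 1 of the 4 libraries left 2 or 3 calls. PSMD1 kept its call in each, PSMC3 lost it in each, PSMA7 lost it without any but DMSO replicate 2, PSME4 without DMSO replicate 2 or doxorubicin replicate 1, and PSMC3IP without DMSO replicate 1 or doxorubicin replicate 2. PSMG1 had 74.9 and 75.8 CPM in doxorubicin and 76.5 and 76.8 CPM in DMSO, and PSMB11 had no reads. PSMB5 had 105 and 104 CPM in doxorubicin and 105 and 100.2 CPM in DMSO, and none of the catalytic subunits was called. NFE2L1 had 207 and 205 CPM in doxorubicin and 171 and 164 CPM in DMSO (0.30 ± 0.11).

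The difference between the responses of the lines was tested directly. The log2 fold change in doxorubicin-resistant cells minus that in parental cells was called for 19 members, 7 higher and 12 lower (18 members, 11 of them lower, without PSMB11, whose difference is fixed by how it became a member), where 58.3% of all tested genes were called, 33.2% higher and 25.1% lower. Median-of-ratios scaling gave 6 higher and 16 lower, with the median of all genes at -0.003 in place of 0.08. The GC and length correction gave 7 higher and 19 lower, with that median at -0.09. PSMG1 (1.04 ± 0.15), PSMD1 (0.60 ± 0.11), PSMD11 (0.55 ± 0.08), PSMA1 (0.49 ± 0.14), PSMG2 (0.48 ± 0.14), PSMB1 (0.45 ± 0.11) and PSME4 (0.35 ± 0.15) fell less or not at all in the resistant line. Among those with a lower response there were PSMC3IP (-1.62 ± 0.19) and 5 of the 6 ATPases, namely PSMC4 (-0.86 ± 0.15), PSMC5 (-0.66 ± 0.12), PSMC2 (-0.49 ± 0.12), PSMC3 (-0.42 ± 0.14) and PSMC1 (-0.27 ± 0.11). PSMC4 had 62.8 and 57.7 CPM in resistant cells in 1 µM doxorubicin, against 68.3 and 66.6 CPM in their DMSO control. The call of PSMG2 was lost without parental doxorubicin replicate 1 (0.33, adjusted p = 0.0535). PSMC3 lost its call without replicate 1 of either parental group. PSMC1 lost it without these and without any resistant library. PSME4 lost it with the replicate block, no filter, median-of-ratios scaling, the GC and length correction, and 5 of the 8 libraries left out in turn.

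**Figure D5:**
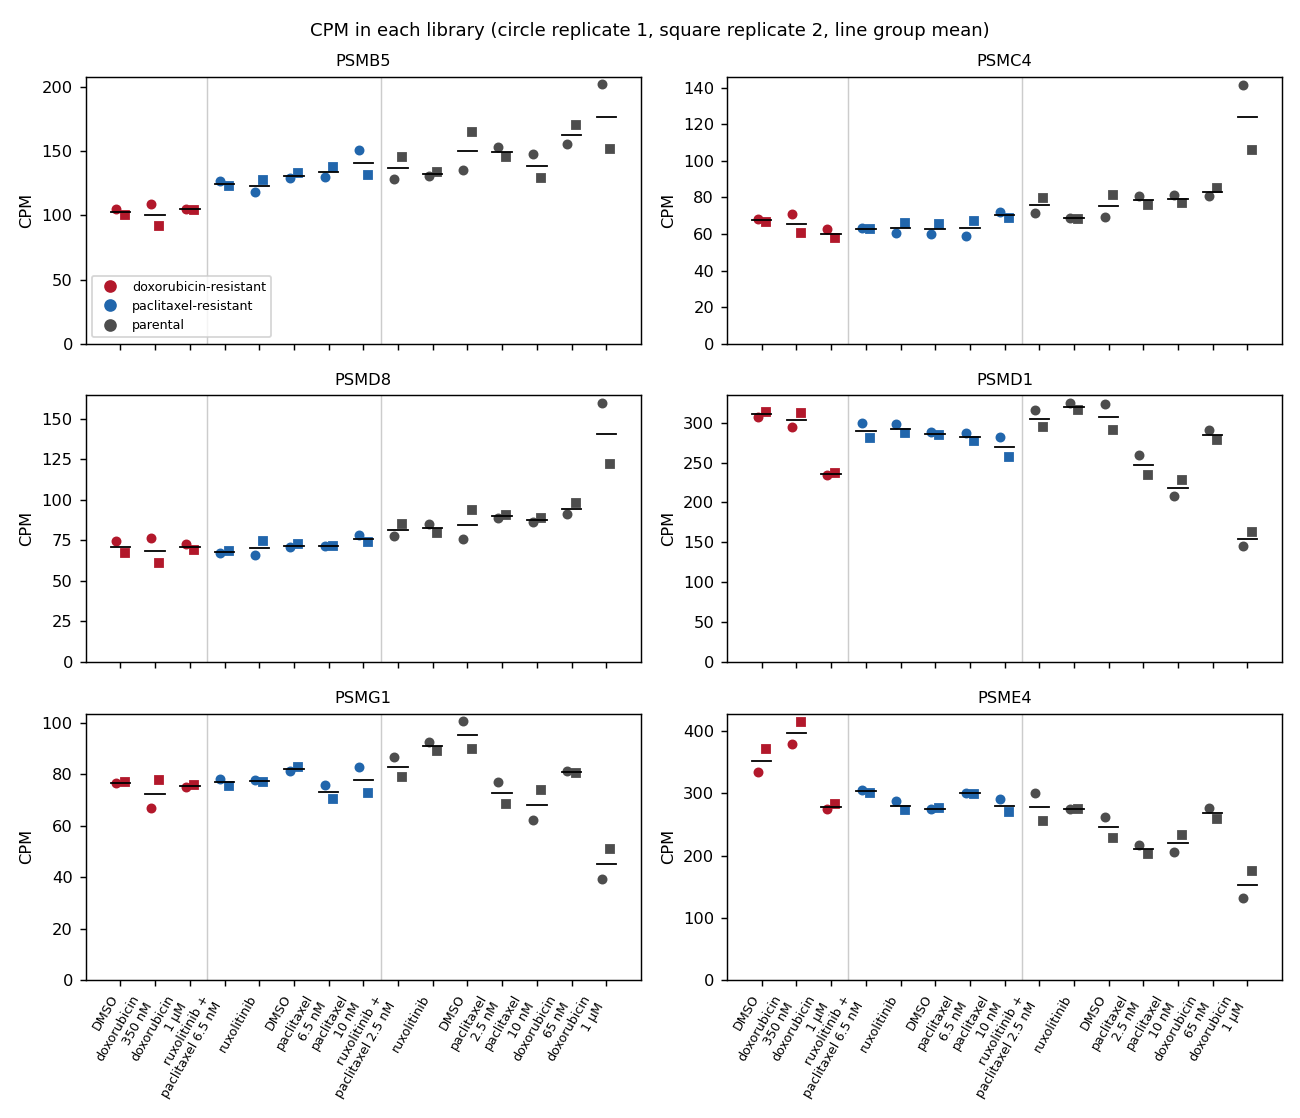
CPM in each library (y axis, from 0) for PSMB5, PSMC4, PSMD8, PSMD1, PSMG1 and PSME4 in the 15 groups (x axis). Circles are replicate 1, squares replicate 2 and lines group means. PSMC4 and PSMD8 are highest, and PSMD1, PSMG1 and PSME4 lowest, in parental cells in 1 µM doxorubicin, and PSMB5 is lowest in the 3 groups of the doxorubicin-resistant line.

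The lower doxorubicin doses called no member. At 350 nM in doxorubicin-resistant cells 3.81% of all tested genes were called (2.39% higher, 1.43% lower), and 1 member had an unadjusted p under 0.05. At 65 nM in parental cells 11.2% of all tested genes were called (5.21% higher, 5.94% lower), and 3 members had an unadjusted p under 0.05. The voom fit to recovered reads called 0 members in both. PSMD1 had 295 and 312 CPM at 350 nM in the resistant line, and 291 and 278 CPM at 65 nM in the parental line.

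At 10 nM paclitaxel, parental cells had 2 members higher and 9 lower than in DMSO. Of all tested genes 48.2% were called, 20.1% higher and 28.1% lower. The share of members called, 26.2%, was not above this background. The GC and length correction gave 7 higher and 10 lower, and it called 7746 of all tested genes. PSMD1 had 323 and 291 CPM in DMSO, 259 and 235 CPM at 2.5 nM, and 209 and 229 CPM at 10 nM. The log2 fold change at 10 nM was -0.49 ± 0.08 (adjusted p = 2.03e-05), and the treated libraries lay below the DMSO ones at both doses. PSMG1 had 100.5 and 89.9 CPM in DMSO, 77.0 and 68.6 CPM at 2.5 nM, and 62.1 and 73.9 CPM at 10 nM (-0.48 ± 0.10 at 10 nM, adjusted p = 0.000623). The chaperone PSMD5 had 166 and 143 CPM in DMSO, 124 and 111 CPM at 2.5 nM, and 101 and 121 CPM at 10 nM (-0.47 ± 0.10 at 10 nM, adjusted p = 0.000733).

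PSMG2 (-0.35 ± 0.10), PSMA1 (-0.33 ± 0.10), PSME3 (-0.28 ± 0.06), PSMA4 (-0.26 ± 0.09), PSMC5 (-0.25 ± 0.09) and PSMD11 (-0.23 ± 0.06) were also lower at 10 nM. PSMG4 (0.47 ± 0.12) and PSMG3 (0.33 ± 0.12), which form the second chaperone pair of the alpha ring, were higher. PSMG4 had 10.6 and 11.1 CPM at 10 nM, against 6.88 and 8.38 CPM in DMSO. The calls of PSMG4, PSMG3, PSMG2 and PSMA1 were lost without DMSO replicate 1, where PSMG4 stood at 0.34 (adjusted p = 0.0665), and those of PSMG3 and PSMA1 also without paclitaxel replicate 1. PSMA4 lost its call without replicate 1 of either group and after the GC and length correction, and PSMC5 without DMSO replicate 2 or either paclitaxel replicate. PSMB5 had 148 and 129 CPM at 10 nM and was not called, nor were PSMB6 (58.3 and 53.4 CPM) and PSMB7 (125 and 116 CPM). Of the 12 regulators, 7 were higher at 10 nM (58.3%, against 20.1% of all tested genes) and none lower (28.1% of all), with MAFF at 2.65 ± 0.14 and NFE2L1 at 0.37 ± 0.11.

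At 2.5 nM paclitaxel, parental cells had 11 members lower and none higher, where 26.8% of all tested genes were called, 9.71% higher and 17.1% lower. PSMG2 (-0.43 ± 0.10), PSMD5 (-0.39 ± 0.10), PSMG1 (-0.38 ± 0.10), PSMA1 (-0.35 ± 0.10) and PSMD10 (-0.34 ± 0.10) had the largest falls. The same comparison followed transcript GC content, with a Spearman rho between GC percent and log2 fold change of 0.69 over the 42 members and 0.65 over 12662 genes, and the difference between the DMSO replicates alone followed it with a rho of 0.80. No member was called without parental DMSO replicate 1 or without paclitaxel replicate 2, and 18 were called without DMSO replicate 2. After each library was corrected for GC content and length, 5 of the 11 kept their call (PSMA1, PSMD1, PSMD5, PSMG1 and PSMG2), PSMD10 stood at -0.06, and 3 other members were called, for 1 higher and 7 lower in all.

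Paclitaxel-resistant cells showed almost no member changes with paclitaxel, and at 6.5 nM almost no changes in any tested gene. At 6.5 nM no member was called, where 0.0942% of all tested genes were called (0.0706% higher, 0.0235% lower), and 0 members had an unadjusted p under 0.05 or a call by voom. At 10 nM the single call was PSMG4, with 10.8 and 9.99 CPM against 7.46 and 8.21 CPM in DMSO (0.37 ± 0.12, adjusted p = 0.0499), where 13.6% of all tested genes were called, 6.62% higher and 6.99% lower. It was lost with any of the 4 libraries left out, and the GC and length correction gave 4 higher and 2 lower. That correction called 3834 of all tested genes. PSMD1 had 282 and 257 CPM at 10 nM and 288 and 284 CPM in DMSO.

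The difference between the responses to 10 nM in paclitaxel-resistant and in parental cells was called for 2 members, where 10.8% of all tested genes were called, 6.87% higher and 3.88% lower. These were PSMD1 (0.40 ± 0.11, adjusted p = 0.0201) and PSME3 (0.31 ± 0.09, adjusted p = 0.0229). All 30 subunits of the core and regulatory particles had a positive estimate, with a median of 0.14 and a range of 0.03 to 0.40, while the median of all tested genes was 0.05. After the GC and length correction the median of the 42 members was 0.03, and that of all genes was -0.03. Replicate 1 of the resistant cells at 10 nM, in which all 30 were above replicate 2, is part of this estimate. Without that replicate, as without either resistant DMSO replicate or parental paclitaxel replicate 1, no member was called.

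The third question is what ruxolitinib changed. In paclitaxel-resistant cells it called no member, where 6.92% of all tested genes were called, 2.86% higher and 4.06% lower. An unadjusted p under 0.05 was reached by 3 members, and voom called 0. With paclitaxel at 6.5 nM in both groups, ruxolitinib called no member either, where 3.28% of all tested genes were called (1.16% higher, 2.12% lower), and the counts at an unadjusted p under 0.05 and by voom were 0. In parental cells 2 members were lower, where 13.2% of all tested genes were called, 5.51% higher and 7.71% lower. PSMD11 had 2127 and 2107 CPM in ruxolitinib, against 2422 and 2480.0 CPM in DMSO (-0.21 ± 0.06, adjusted p = 0.0122). PSMB7 had 109.6 and 107 CPM in ruxolitinib, against 123 and 135 CPM in DMSO (-0.25 ± 0.08, adjusted p = 0.0481). Both calls were lost without DMSO replicate 2 and without either ruxolitinib replicate, and the GC and length correction gave 2 higher and 8 lower. That correction called 3761 of all tested genes. The difference between the responses of the lines was called for 0 members, where 0.408% of all tested genes were called (0.298% higher, 0.110% lower), with 0 at an unadjusted p under 0.05 and 0 by voom.

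The inducible subunits of the immunoproteasome, which are no members, had larger falls with ruxolitinib in parental cells. Of the list of 5 genes that they form with PSME1 and PSME2, 60% were called and none was higher. Of all tested genes 13.2% were called. PSMB10 had 8.27 and 9.84 CPM in ruxolitinib, against 16.6 and 20.3 CPM in DMSO (-0.95 ± 0.13), and PSMB8 and PSMB9 were both lower by a log2 fold change of -0.75. The constitutive counterparts PSMB5 (131 and 134 CPM in ruxolitinib) and PSMB6 (46.2 and 45.1 CPM) were not called, while PSMB7 was called lower. No test compared the inducible with the constitutive subunits.

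Ruxolitinib added to 2.5 nM paclitaxel in parental cells had 11 members higher and none lower than paclitaxel alone, where 27.9% of all tested genes were called, 15.1% higher and 12.9% lower. PSMD10, an ATPase chaperone also known as gankyrin, had 99.0 and 87.3 CPM in the combination, against 70.0 and 63.2 CPM in paclitaxel alone (0.48 ± 0.10, adjusted p = 0.0012). PSMG2 (0.42 ± 0.10), PSME4 (0.40 ± 0.10), PSMA2 (0.40 ± 0.08) and PSMD5 (0.40 ± 0.10) followed. The comparison shares its paclitaxel libraries with that of 2.5 nM paclitaxel against DMSO, in which PSMD10, PSMG2, PSMA2 and PSMD5 were lower. It followed GC content with a Spearman rho of -0.65 over the members and -0.60 over all genes. Without paclitaxel replicate 2, or without replicate 1 of the combination, PSMD10 was the only member called. After the GC and length correction 8 members were higher and 5 lower. Of the 11, 7 kept their call, and PSMA2 did not (0.12). Median-of-ratios scaling gave 9 higher and 2 lower.

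The 10 genes outside the members whose 15 group means followed the mean of the 30 standardised subunits most closely included HNRNPC, SEPHS2, RPS12, ERH, SEP15, FCF1, VIPAS39, POP4 and BIN3. HNRNPC, an RNA-binding protein of the nucleus, had a Pearson r of 0.86 and BIN3 one of 0.81 over the 15 groups, a description of points that share libraries and depth. PSMA3, PSMA6, PSMB5, PSMC1 and PSMC6 on chromosome 14 are among the 30 subunits. The positions of the 10 genes were not examined, so a part of shared chromosomal position in these r values was not tested. Without parental cells in 1 µM doxorubicin the r of HNRNPC was 0.76 and that of BIN3 was 0.69.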

How the data were processed

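RNA of SUM190 cells was sequenced from poly-A libraries, per the labels' protocols. Reads were aligned to GRCh37/hg19 with STAR 2.5.1b and scaled with edgeR, per the submitters' processing notes. No read counter, gene annotation or strand setting is named there. The deposited values are log2(CPM + 1) after TMM scaling by the authors. Whole reads could be recovered within 0.01 from 100% of the positive values in the range checked, which left out the highest values. Genes with at least 1 CPM in 2 libraries (12743) were fitted with limma 3.58.1 in R 4.3.3, with a mean for each of 15 groups and the trend and robust options. Calls are at a Benjamini-Hochberg adjusted p under 0.05 over all tested genes, with 15 residual degrees of freedom. The design had assumed counts, so a limma fit of the log2 values replaced a count model. The step was tested on simulated data. The members and lists were chosen with earlier results of these data known. Any member or listed gene may be named. In a comparison, up to 5 called each way with the largest fold changes and the catalytic subunits are given with values, and others were chosen after their values were seen. Lengths and spans come from GENCODE v29, gene order and promoters from RefSeq (GRCh38.p14). Exons of 11 members overlap another gene of the table, and 11 have named pseudogenes, so their reads could be split. The ± values are standard errors of the limma fit, from the spread between libraries, and the floors cover counting error only. A few genes of the lists are not reported here by name.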

Additional observations from a re-analysis of the deposited data

Results flagged for a closer look

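The response to 1 µM doxorubicin differed between doxorubicin-resistant and parental cells for 18 members other than PSMB11 by the test of the difference (resistant minus parental, limma, adjusted p under 0.05). The largest positive differences of log2 fold change were in PSMG1 (1.04), PSMD1 (0.60), PSMD11 (0.55), PSMA1 (0.49) and PSMG2 (0.48). The largest negative ones were in PSMC3IP (-1.62), PSMC4 (-0.86), PSMD8 (-0.72) and PSMC5 (-0.66). PSMB11 is left out because it is a member only through parental cells in 1 µM doxorubicin. The response to 10 nM paclitaxel differed between paclitaxel-resistant and parental cells for 2 members, PSMD1 (0.40) and PSME3 (0.31).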

How the results depend on the processing

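Among the named values, 65 were followed through the alternatives, namely up to 5 called members each way per comparison and the called catalytic subunits. None of these reversed its sign, and the other values were not in this check. The 65 named values gave 828 values under alternatives, of which 103 were no longer called, 78 of them with a library left out. With 1 library left out, the number of members called ranged over 5 to 8 (doxorubicin-resistant against parental cells), 3 to 11 (paclitaxel-resistant against parental), 4 to 5 (between the resistant lines), 0 to 18 (2.5 nM paclitaxel), 7 to 14 (10 nM), 0 to 1 (65 nM doxorubicin), 22 to 28 (1 µM), 0 to 4 (ruxolitinib) and 1 to 14 (combination) in parental cells. The range was 2 to 3 for 1 µM doxorubicin in its resistant line, 0 to 1 for 10 nM paclitaxel in its resistant line, 14 to 23 for the difference of doxorubicin responses and 0 to 5 for that of paclitaxel responses. Correcting each library for GC content and length gave 14, 19 and 19 members in the 3 line comparisons, 17 for 10 nM paclitaxel, 3 for 65 nM doxorubicin and 10 for ruxolitinib in parental cells, 2 and 19 for 350 nM and 1 µM doxorubicin in resistant cells, and 6, 6 and 2 for 10 nM paclitaxel, ruxolitinib and the combination in paclitaxel-resistant cells. With a replicate block added these were the same except for 18 between the resistant lines. Without the block, the correction also raised the calls over all 12743 tested genes in each of these comparisons. It gave 5651, 6108 and 6367 in the 3 line comparisons. For 65 nM and 350 nM doxorubicin it gave 3074 and 1973. For ruxolitinib and the combination in paclitaxel-resistant cells it gave 2227 and 1473. For comparisons outside this list its count over all genes is not given. With only the lines compared, 17 members were called between the resistant lines, 1 for 2.5 nM paclitaxel, 0 for ruxolitinib and 3 for the combination in parental cells, and 2 and 3 for 10 nM paclitaxel and ruxolitinib in paclitaxel-resistant cells. Median-of-ratios scaling gave 1 for ruxolitinib in parental cells. The single call at 10 nM paclitaxel in paclitaxel-resistant cells became 0 with that scaling, a pseudocount of 0.25, no filter or the replicate block. The replicate block alone changed the count from 4 to 3 for paclitaxel-resistant against parental cells and from 19 to 18 for the difference of doxorubicin responses, and beyond these 3 no other count. Of 105 pairs of groups, same-numbered libraries deviated together (r over 0.1) in 30 and in opposition (r under -0.1) in 30, with a median r of 0.00164. As not every pair was over 0.1, the numbers were not taken to pair the samples. The planned edgeR fit was not run, and a voom fit to recovered reads and the counts without PSMB11 were chosen after seeing the data. The cause of these changes was not tested.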
